A study of Mus musculus with 6 samples.

Results

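The constitutive proteasome genes are the 44 rows, of 27634 in the deposited table, whose symbol starts with Psma, Psmb, Psmc, Psmd, Psme, Psmf or Psmg and a digit, leaving out the inducible subunits Psmb8, Psmb9 and Psmb10. By role they are 13 subunits of the 20S core, 16 subunits of the 19S regulatory particle, 7 assembly chaperones, 4 activators, 1 inhibitor, 2 tissue-restricted core subunits and Psmc3ip. Psmc3ip encodes a protein of meiotic recombination and matches by its symbol alone. The core subunit Psmb5 was not analysed here. The lid subunit Psmd7 has no row of its own symbol either, although 1 row, AK158379, is described as similar to it.

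The cells are labelled cancer-associated dendritic cells and came from C57BL/6 mice bearing ID8-Defb29/Vegf-a tumours, an engineered mouse ovarian cancer line, for 32 to 38 days. Per the protocol the mice received 100 µg siRNA carried by rhodamine-conjugated polyethylenimine, either against Satb1 or non-targeting (NT). The high experiment, named for its strong loss of the chromatin organiser Satb1, has 2 libraries with Satb1 siRNA and 2 with NT siRNA. The low experiment, labelled as having weak loss, has 1 library labelled Satb1 siRNA and 1 with NT siRNA, and its Satb1 level (below) does not show a loss beyond counting error. The labels give neither age nor sex of the mice, nor whether repeats came from separate animals.

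The proteasome is the protease that degrades proteins tagged with ubiquitin. Its 20S core is a barrel of alpha and beta rings with the catalytic sites inside. The 19S particle caps the barrel: its lid and base bind and strip ubiquitin chains, and its ATPases unfold the substrate and feed it in. Immune cells can swap the catalytic beta subunits for inducible ones, and peptides cut by proteasomes supply MHC class I molecules. In mammalian cells the transcription factor NRF1 (gene Nfe2l1) raises many proteasome genes together through antioxidant response elements.

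Promoter stretches are shown for 4 members as examples. They are the 120 bases before the transcription start, from RefSeq on GRCm38.p6, and capitals mark matches to TGACNNNGC (the core of the antioxidant response element) or CCAAT (the NF-Y box) on either strand. The deposited values were made on another build, mm9, so these positions belong to GRCm38.p6 alone. Psmb6, with the largest fall of the core, lies on chr11:70525237-70525356 (+). Psmb3, another beta subunit, lies on chr11:97703314-97703433 (+). Psma5, whose change differed most clearly between the experiments, lies on chr3:108256806-108256925 (+). Psmc2, a 19S ATPase with no called change, has 2 starts in the table, of which the one at chr5:21785155-21785274 (+) is shown.
Psmb6: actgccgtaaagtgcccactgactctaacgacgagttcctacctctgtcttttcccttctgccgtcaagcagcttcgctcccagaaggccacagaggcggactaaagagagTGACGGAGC
Psmb3: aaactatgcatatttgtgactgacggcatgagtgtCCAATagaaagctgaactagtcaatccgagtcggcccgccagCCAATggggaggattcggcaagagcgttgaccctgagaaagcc
Psma5: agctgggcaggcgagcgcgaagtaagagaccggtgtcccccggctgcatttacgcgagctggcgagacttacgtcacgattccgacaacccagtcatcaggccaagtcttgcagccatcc
Psmc2: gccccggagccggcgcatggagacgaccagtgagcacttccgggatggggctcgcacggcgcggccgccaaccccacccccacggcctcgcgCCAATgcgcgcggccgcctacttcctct

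Within 250 bases before the start, 37 of the 44 members had a promoter in the table; Psma8, Psmb1, Psmb2, Psmb7, Psmc3, Psmd3 and Psmg2 had none. TGACNNNGC occurred in 4 of the 37 (Psmb6, Psmc6, Psmd12 and Psmd9), or 10.8%, against 11.5% of all 27025 genes of the table. CCAAT occurred in 14 of the 37, or 37.8%, against 37.5% of all genes. By particle, CCAAT was found in 6 of 10 core genes and in 4 of 14 genes of the 19S particle. Each motif was counted on its own, whether or not it overlapped the other, and a match is a description of these letters only.

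Library totals ran from 24553454 to 71272720 counts, and the 44 genes took between 0.383% and 0.493% of them. Satb1 stood at 0.57 and 0.63 FPKM in the high Satb1 libraries and at 2.91 and 2.70 FPKM in the high NT libraries, and at 1.04 FPKM (6.72 CPM) in the library labelled low Satb1 and 0.98 FPKM (6.29 CPM) in the low NT library. In the low experiment Satb1 was thus slightly higher in the library labelled Satb1 siRNA, and only TMM scaling put it below NT, with a ratio of 0.835 (95% counting interval 0.670 to 1.04). Repeats of a high group differed little beyond counting noise: the mean chi-square per member was 1.26 for Satb1 siRNA and 1.44 for NT, and 0 of the 44 members differed between repeats (chi-square, Benjamini-Hochberg adjusted). Each group therefore counts as 1 sample. The edgeR tests below compare the sequenced libraries, not the conditions over independent mice. Markers of dendritic cells (7 genes) summed to 221 and 212 CPM in the high Satb1 libraries, 394 and 391 CPM in the high NT libraries, 7590 CPM in the library labelled low Satb1 and 6170 CPM in the low NT library. Cd74, H2-Ab1 and Itgax carried most of these sums. In the high experiment 4 of the 7 were called lower with Satb1 siRNA and 3 (Flt3, Zbtb46 and Cd209a) higher, and Cd209a stood below 1 CPM in these libraries. Macrophage markers (7 genes) summed to 2313 and 2308 CPM in the high Satb1 libraries, 1904 and 1891 CPM in the high NT libraries, 2368 CPM in the library labelled low Satb1 and 3198 CPM in the low NT library. Markers of neutrophils summed to 70.1 and 69.7 CPM in the high Satb1 libraries and 50.7 and 49.7 CPM in the high NT libraries. They summed to 84.5 CPM in the library labelled low Satb1 and 237 CPM in the low NT library. Those of B and T cells summed to at most 49.0 CPM in any library. Tumour or mesothelial markers (6 genes) summed to 610 and 608 CPM in the high Satb1 libraries and 536 and 536 CPM in the high NT libraries. In the high libraries these sums were above those of the dendritic cell markers. In the low experiment they were 432 CPM in the library labelled low Satb1 and 87.0 CPM in the low NT library. The part of these differences in the results below was not tested, and in bulk RNA fewer cells of a type and less RNA per cell cannot be told apart.

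With strong loss of Satb1, transcripts of nearly the whole 26S proteasome were lower, with similar medians for both particles. All 13 core subunits and 15 of 16 subunits of the 19S particle fell in the high Satb1 libraries relative to the high NT libraries (edgeR quasi-likelihood test, adjusted p under 0.05). The median fold was 0.785 for the core and 0.803 for the 19S particle, or -0.35 and -0.32 on the log2 scale, against 0.011 for all 20242 genes tested. Over the 44 members, 37 were called lower, 1 higher and 6 not, while 33.2% of all genes tested were called lower and 32.8% higher. Of the 5378 more abundant genes (mean log2 CPM at least 5), 51.9% were called lower and 32% higher. At least 1.5-fold lower were 5 of the 44 (Psma8, Psmb6, Psme2, Psmb4 and Psmd8), close to the 9.8% of all genes tested. At least 1.5-fold higher were 0 of the 44, against 14.8% of all genes tested. Of the 5378 more abundant genes, 228 were at least 1.5-fold lower and 45 at least 1.5-fold higher. In the TMM-scaled CPM the libraries of the groups did not overlap for 41 of 44 members, against 82.2% of all genes tested.

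**Figure D1:**
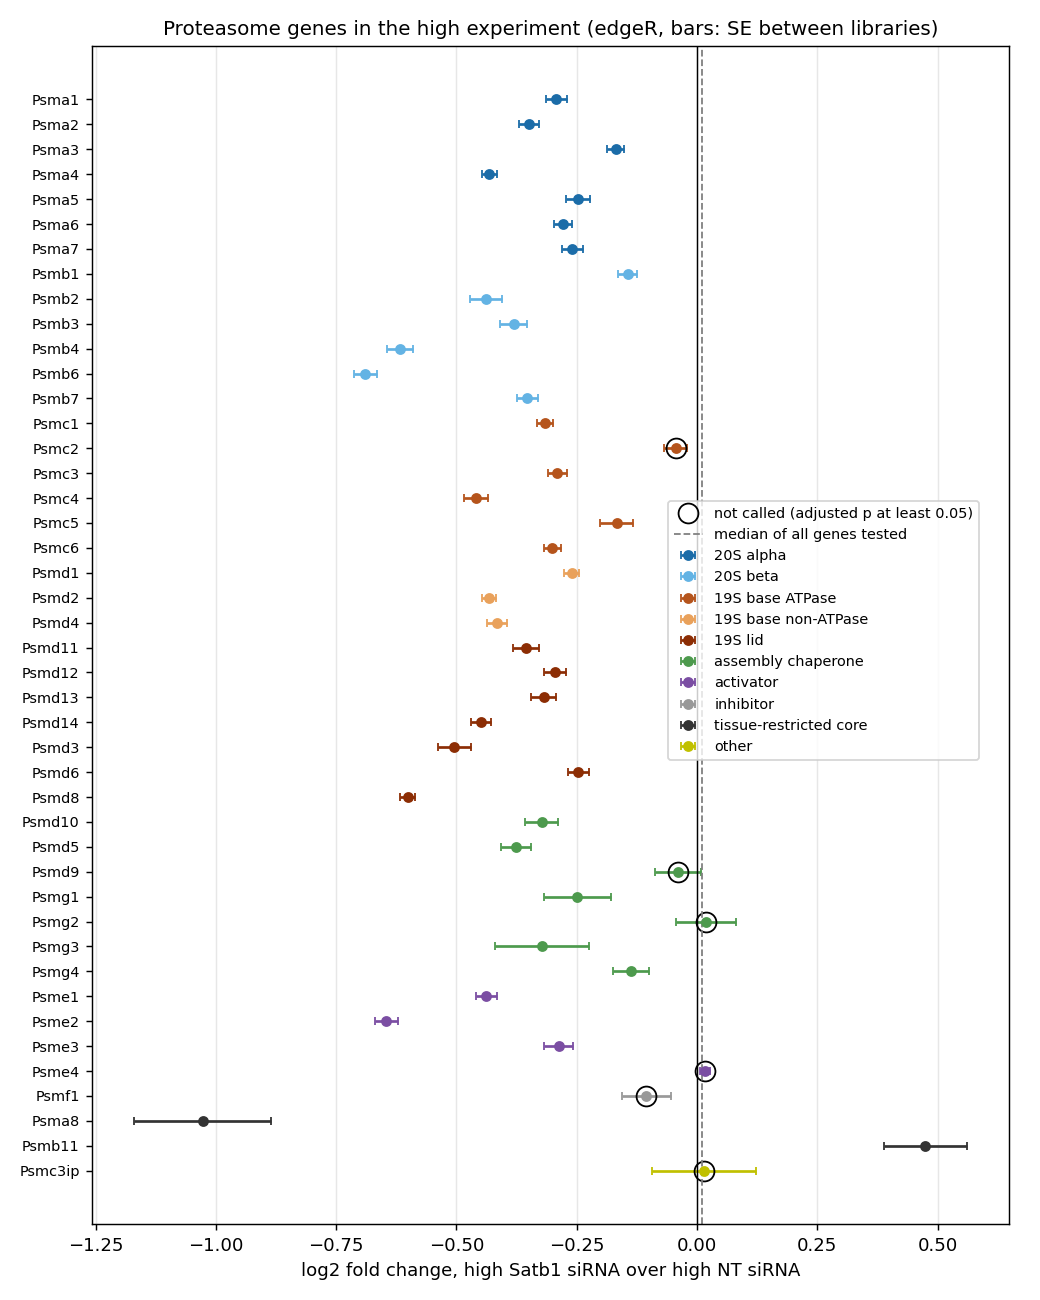
log2 fold change of each of the 44 proteasome genes in the high experiment, Satb1 siRNA over NT siRNA, by role, with bars for the SE between libraries and rings around genes that were not called. The 13 core subunits lie between -0.69 and -0.14, the 16 subunits of the 19S particle between -0.60 and -0.044, and the dashed line marks the median of all genes at 0.011.

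In the core, beta subunits spread more widely than alpha subunits. The 6 beta subunits had a median of -0.41 and a range of -0.69 to -0.14, and the 7 alpha subunits had a median of -0.28 and a range of -0.43 to -0.17. Psmb6, the caspase-like catalytic subunit, stood at 69.9 and 69.1 FPKM in the high Satb1 libraries and at 109 and 106 FPKM in the high NT libraries. Both Satb1 libraries lay far below both NT libraries, and the fold was 0.620 (log2 -0.69, SE 0.024, edgeR adjusted p = 6.11e-39). Psmb4, a non-catalytic beta subunit, stood at 68.4 and 63.5 FPKM in the high Satb1 libraries, against 98.6 and 96.0 FPKM in the high NT libraries (log2 -0.62). Psmb7, the trypsin-like catalytic subunit, fell less, by 0.35 on the log2 scale (87.0 and 88.8 FPKM with Satb1 siRNA against 107 and 108 FPKM with NT). Psmb1 changed least among the core subunits, with 127 and 127 FPKM in the high Satb1 libraries and 135 and 135 FPKM in the high NT libraries (log2 -0.14, SE 0.020, edgeR adjusted p = 3.80e-09).

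Psma4, the core subunit with the most transcript, stood at 175 and 178 FPKM in the high Satb1 libraries, against 231 and 230 FPKM in the high NT libraries. Its fold of 0.741 was the largest fall among alpha subunits (log2 -0.43, SE 0.015, edgeR adjusted p = 6.34e-38). Psma3 had the smallest fall of that ring, with 126 and 126 FPKM in the high Satb1 libraries and 137 and 136 FPKM in the high NT libraries (log2 -0.17). Psma1, Psma2, Psma5, Psma6 and Psma7 lay between them, at -0.29, -0.35, -0.25, -0.28 and -0.26. The alpha rings form the gates of the barrel and the faces on which activators dock.

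The 19S particle moved with the core, and its 2 largest falls were in the lid. All 7 lid subunits fell, with a median of -0.36. Psmd8 (Rpn12) led with 107 and 106 FPKM in the high Satb1 libraries, against 154 and 154 FPKM in the high NT libraries (log2 -0.60, SE 0.016, edgeR adjusted p = 1.86e-45). Psmd3 (Rpn3) followed at -0.50 and Psmd14 (Rpn11), the deubiquitinase that removes ubiquitin chains before degradation, at -0.45. Psmd11, Psmd13 and Psmd12 fell by 0.36, 0.32 and 0.29 on the log2 scale. Psmd6 had the smallest fall of the lid, with 70.7 and 69.5 FPKM in the high Satb1 libraries and 80.1 and 79.8 FPKM in the high NT libraries (log2 -0.25). The row AK158379, described as similar to Psmd7, had a log2 fold change of -0.38 in the same test.

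In the base, 5 of 6 ATPases fell, with a median of -0.30 over the 6. Psmc4 fell most (47.0 and 45.7 FPKM in the high Satb1 libraries against 62.3 and 60.3 FPKM in the high NT libraries, log2 -0.46), and Psmc1, Psmc6 and Psmc3 fell by 0.32, 0.30 and 0.29. Psmc2 was the one 26S subunit without a call. It stood at 40.9 and 41.1 FPKM in the high Satb1 libraries and at 40.4 and 40.8 FPKM in the high NT libraries, with a log2 fold change of -0.044 (SE 0.025, edgeR adjusted p = 0.104) that became 0.0099 with library size alone. Psmc5 fell by 0.17 on the log2 scale, although its FPKM values touched (23.6 and 22.9 in the high Satb1 libraries, 25.1 and 23.6 in the high NT libraries). The non-ATPase base subunits all fell: the scaffold subunits Psmd2 and Psmd1 by 0.43 and 0.26 on the log2 scale, and the ubiquitin receptor Psmd4 by 0.42.

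Set against each other, core and 19S particle fell together. The medians of the log2 fold change differed by -0.031 (core minus 19S), a value that ran from -0.037 to -0.0056 when 1 library was left out. The ratio of the geometric mean FPKM of the core to that of the 19S particle was 1.62 and 1.62 in the high Satb1 libraries and 1.65 and 1.66 in the high NT libraries. The core averaged (geometric mean) 90.1 and 89.3 FPKM with Satb1 siRNA and 111 and 111 FPKM with NT, and the 19S particle 55.6 and 55.2 FPKM with Satb1 siRNA and 67.6 and 66.9 FPKM with NT. No test was run on these ratios, since 2 libraries against 2 cannot go below an exact permutation p of 0.333.

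**Figure D2:**
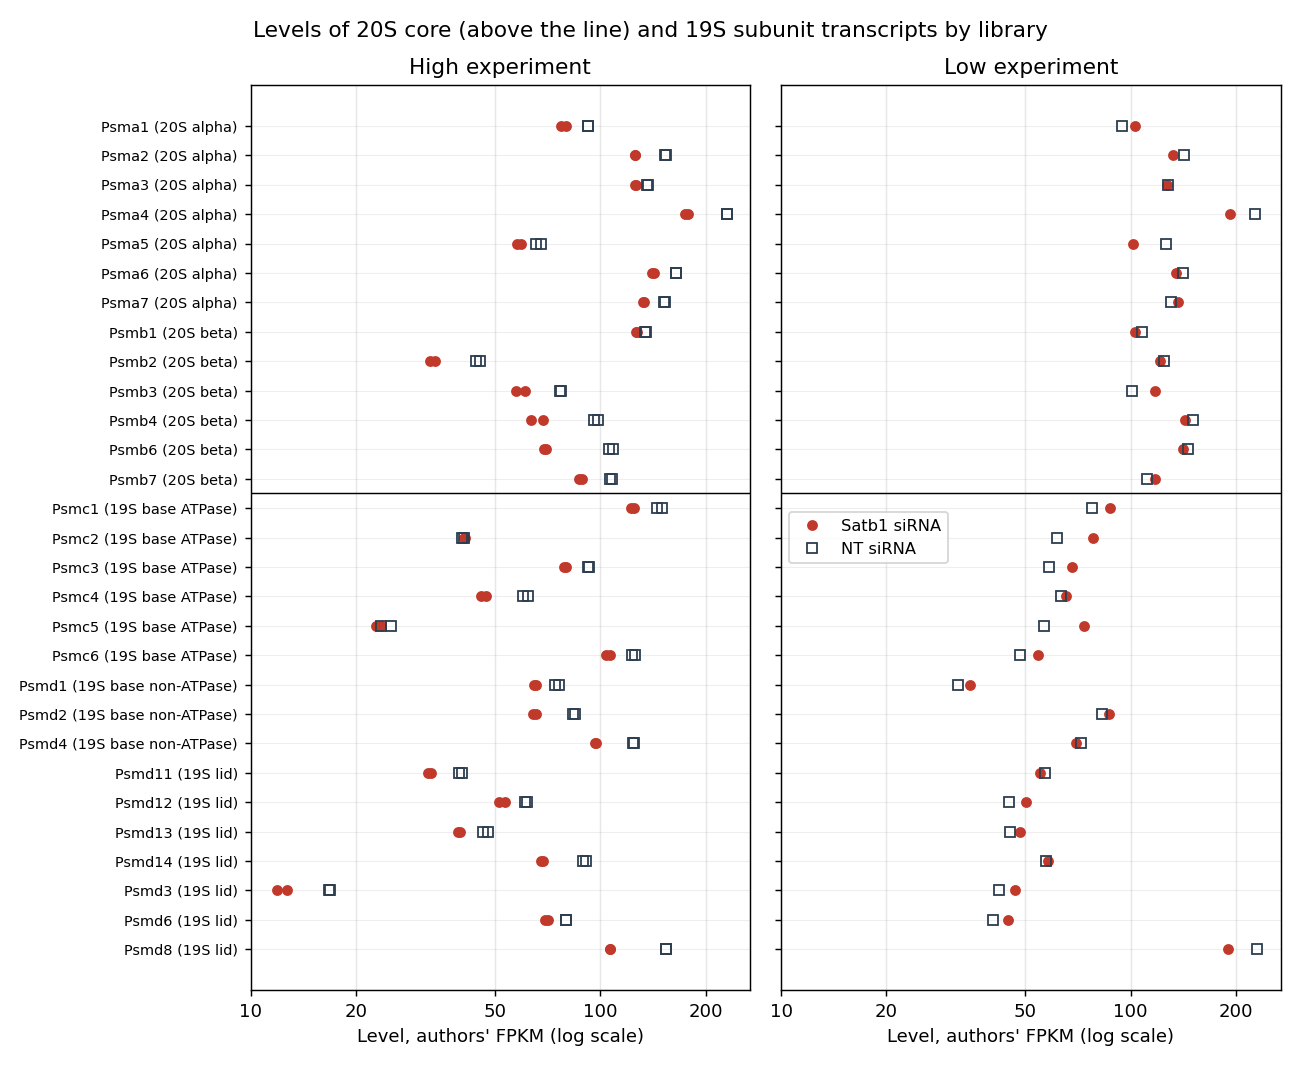
Level of each of the 13 core subunits (above the line) and 16 subunits of the 19S particle in every library, in the authors' FPKM on a log axis, with filled points for Satb1 siRNA and open squares for NT siRNA. In the high experiment core levels span 32.7 to 178 FPKM with Satb1 siRNA and 44.2 to 231 FPKM with NT, and in the low experiment the core lies closer together, at 101 to 192 FPKM with Satb1 siRNA and 94.6 to 227 FPKM with NT.

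Subunits that form one complex in fixed numbers differed widely in transcript level. In the high NT libraries the order of core FPKM ran from Psma4 (231), Psma6 (165) and Psma2 (154) down to Psmb3 (77.1), Psma5 (66.7) and Psmb2 (44.7), means of near-identical repeats. In the 19S particle it ran from Psmd8 (154), Psmc1 (148) and Psmc6 (124) down to Psmd11 (39.8), Psmc5 (24.4) and Psmd3 (16.8). Some neighbours could not be ranked, such as Psma2 and Psma7 (154 and 153 FPKM) or Psmc6 and Psmd4 (both 124 FPKM). The SD of log2 FPKM over the core was 0.68 and 0.69 in the high Satb1 libraries and 0.63 and 0.62 in the high NT libraries. Over the 19S particle it was 0.87 and 0.90 with Satb1 siRNA and 0.91 and 0.91 with NT. In the low experiment the levels were closer to each other, with an SD of 0.25 in the Satb1 library and 0.32 in the NT library for the core, and of 0.56 with Satb1 siRNA and 0.63 with NT for the 19S particle.

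Activators split by type. Psme1 and Psme2 form PA28, a cap that interferon gamma induces and that opens the core without ATP, and both fell. Psme2 stood at 81.6 and 79.6 FPKM in the high Satb1 libraries, against 120 and 123 FPKM in the high NT libraries (log2 -0.65, SE 0.024, edgeR adjusted p = 5.76e-37). Psme1 stood at 106 and 108 FPKM in the high Satb1 libraries, against 137 and 142 FPKM in the high NT libraries (log2 -0.44). Psme3, which forms the nuclear PA28 gamma, fell by 0.29 on the log2 scale (16.0 and 15.4 FPKM with Satb1 siRNA against 18.7 and 18.6 FPKM with NT). Psme4, which encodes the activator PA200, was not called, with 60.0 and 60.4 FPKM in the high Satb1 libraries and 56.4 and 56.6 FPKM in the high NT libraries (log2 0.016, SE 0.010, edgeR adjusted p = 0.176). With library size alone it was called higher (log2 0.070, adjusted p = 6.50e-09).

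Assembly and accessory genes moved less evenly. Of the 7 assembly chaperones 5 fell and 2 were not called, with a median of -0.25. The base chaperones Psmd5 and Psmd10 (gankyrin) fell by 0.38 and 0.32 on the log2 scale, while Psmd9 had a log2 fold change of -0.039 (edgeR adjusted p = 0.477). Of the chaperones of the alpha ring, Psmg1, Psmg3 and Psmg4 fell by 0.25, 0.32 and 0.14, and Psmg2, the partner of Psmg1, had a log2 fold change of 0.018 (edgeR adjusted p = 0.807). The Psmg3 call ended in DESeq2 (adjusted p = 0.0730) and without Satb1 replicate 1 (edgeR adjusted p = 0.0852), and the Psmg4 call without NT replicate 2 (edgeR adjusted p = 0.0832). Psmf1, the inhibitor PI31, stood at 4.56 and 4.47 FPKM in the high Satb1 libraries and at 4.86 and 4.42 FPKM in the high NT libraries, and was not called (log2 -0.10, edgeR adjusted p = 0.0602). Without NT replicate 2 it was called lower (edgeR adjusted p = 0.0179), and likewise with 4 group means over 6 libraries (edgeR adjusted p = 0.0428).

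Tissue-restricted core subunits were near the bottom of the range. Psma8, the alpha subunit of spermatocytes, stood at 0.90 and 0.74 FPKM in the high Satb1 libraries and at 1.72 and 1.49 FPKM in the high NT libraries, a fold of 0.491 (edgeR adjusted p = 2.59e-09). Psmb11, the beta subunit of thymic cortical epithelium, was the only member called higher. It stood at 1.88 and 2.20 FPKM in the high Satb1 libraries and at 1.17 and 0.99 FPKM in the high NT libraries, a fold of 1.39 (edgeR adjusted p = 2.30e-06). Psmc3ip, with 3.51 and 3.45 FPKM in the high Satb1 libraries and 3.15 and 3.28 FPKM in the high NT libraries, was not called (edgeR adjusted p = 0.916).

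The inducible catalytic subunits, which replace Psmb5, Psmb6 and Psmb7, were lower as well. Psmb8, Psmb9 and Psmb10 had log2 fold changes of -0.71, -0.53 and -0.65 in the high experiment, beside -0.69 for Psmb6 and -0.35 for Psmb7. The ratio of Psmb9 to Psmb6 in FPKM was 0.249 and 0.241 in the high Satb1 libraries and 0.216 and 0.234 in the high NT libraries. The ratio of Psmb10 to Psmb7 was 0.204 and 0.185 with Satb1 siRNA and 0.243 and 0.237 with NT. The first ratio was thus slightly higher and the second lower with Satb1 siRNA.

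Other genes of the pathway had a median nearer to 0. Of 28 listed genes of assembly, ubiquitin supply, delivery and regulation, 27 had a row, and 19 were called lower, 3 higher and 5 not in the high experiment, with a median of -0.14. Over all genes tested 33.2% were lower and 32.8% higher. Adrm1, a ubiquitin receptor of the base, fell by 0.43 on the log2 scale, and the maturation factor Pomp by 0.25. Nfe2l1, the gene of NRF1, stood at 23.0 and 22.8 FPKM in the high Satb1 libraries and at 22.5 and 21.2 FPKM in the high NT libraries, and was not called (log2 0.038, edgeR adjusted p = 0.137). Nfe2l2, its relative, fell by 0.11. The highest was the shuttle factor Ubqln2, at 0.20, a call that ended in DESeq2 and without NT replicate 2. The lowest was the polyubiquitin gene Ubb, at -2.12, a value that is uncertain. Its counts were 56 and 20 in the high Satb1 libraries and 222 and 217 in the high NT libraries. Its FPKM differed less, at 14.6 and 16.45 with Satb1 siRNA against 33.2 and 26.3 with NT. The log2 fold change was -2.999 without Satb1 replicate 1 and -1.60 without Satb1 replicate 2. The part of reads shared with near-identical copies was not tested. The nuclear RNAs Malat1 and Neat1 were higher in the same libraries (edgeR adjusted p = 0.000271 and 5.45e-77), and their part in the falls was not tested.

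In a fit that sums the repeats and uses the experiment as a term, so that the 2 experiments are the replicates, edgeR called 0 of 44 members, and 6 of 19068 genes (0.0315%) lower. At an unadjusted p under 0.05 it found 13 of the 44, against 8.56% of all genes and 858 of the 5378 more abundant genes. All 13 were lower, against 5.73% of all genes called so. Satb1 itself was not called in that fit (edgeR adjusted p = 0.618). The median over the members was -0.28 in that fit.

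In the low experiment, where the direction of Satb1 itself turned with the scaling, proteasome transcripts were again mostly lower relative to other genes, and here the core was lower than the 19S particle. This experiment has 1 library per siRNA and no test. Of 42 members above a mean log2 CPM of 0, the median log2 ratio of TMM-scaled CPM was -0.29, against -0.065 for 12977 genes. Scaling mattered: with library size alone the median of all genes was 0.29 and that of the members 0.066, so directions are given relative to all genes. On that footing 36 of 42 members lay below the median of all genes, where 50% of genes do by definition. The core lay 0.34 and the 19S particle 0.16 below it on the log2 scale. Abundant genes were lower too: of the more abundant set used for the high experiment, 5348 passed the floor here, with a median of -0.15. The core (-0.41), the 19S particle (-0.23) and the members (-0.29) lay below that value as well, but by less. The deposited FPKM are not TMM-scaled, and their log2 ratio had a median of 0.29 over all genes and 0.067 over the members.

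The core to 19S ratio showed the difference without any scaling. It was 1.98 in the library labelled low Satb1 and 2.19 in the low NT library, a quotient of 0.904, against a quotient of 0.980 in the high experiment. Core subunits had log2 ratios of -0.67 to -0.16 and 19S subunits of -0.64 to 0.022. The lowest core subunit was Psma5, with TMM-scaled CPM of 137 in the library labelled low Satb1 and 218 in the low NT library, a ratio of 0.629 (95% counting interval 0.600 to 0.659). Psma4 had a ratio of 0.661 (0.637 to 0.685), and Psmd8, the lowest 19S subunit as in the high experiment, of 0.643 (0.624 to 0.663). At the other end, Psmc5 and Psmc2 stood at ratios of 1.02 (0.956 to 1.08) and 0.991 (0.943 to 1.04). The 6 ATPases had a median log2 ratio of -0.16, the 7 alpha subunits of -0.42 and the 6 beta subunits of -0.41.

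Outside the 26S particle, the chaperone Psmd10 had the lowest ratio of all members above the floor (0.515, interval 0.469 to 0.564). Its TMM-scaled CPM was 33.3 in the library labelled low Satb1 and 64.6 in the low NT library. Without TMM these were 30.1 and 45.7 CPM. With Psma4, Psma5 and Psmd8, Psmd10 makes 4 members at least 1.5-fold lower, against 11.6% of all genes, and 0 were at least 1.5-fold higher, against 14.2%. Psmg2, Psmg3, Psmc3ip and Psmc5 had log2 ratios above 0, as did 44.1% of all genes. That count rests on the scaling: 38 of 42 members lay below 0 with TMM and 15 of 42 with library size alone. Psma8 and Psmb11, with 21 and 12 counts in the library labelled low Satb1 and 11 and 22 counts in the low NT library, lay below the floor. The inducible Psmb8, Psmb9 and Psmb10 had log2 ratios of -0.45, -0.60 and -0.68.

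**Figure D3:**
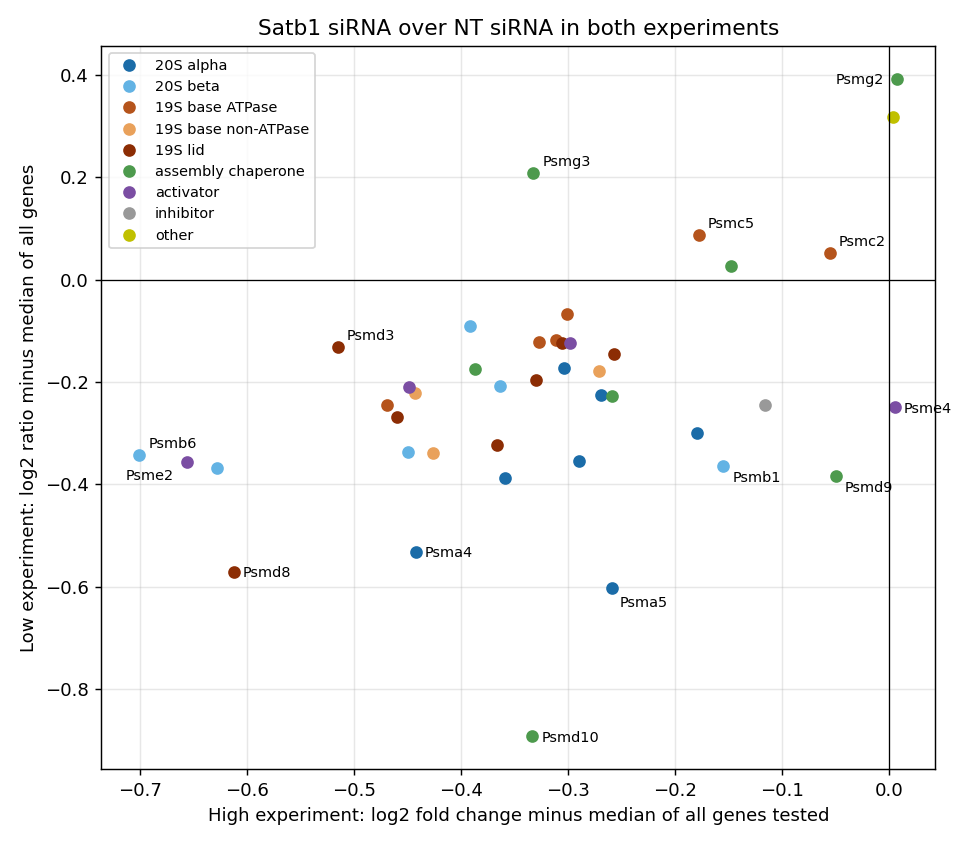
log2 change with Satb1 siRNA over NT siRNA for 42 proteasome genes in the high experiment (horizontal) and the low experiment (vertical), each minus the median of all genes in that experiment. Most genes lie to the lower left, Psmd10, Psma5 and Psmd8 lie lowest in the low experiment, and Psmb6, Psme2 and Psmb4 lie farthest left.

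Across subunits the changes in both experiments were loosely related. Over the 29 subunits of the 26S particle, the log2 fold changes of the high and low experiments gave Pearson's r of 0.44 and Spearman's rho of 0.34, a description over genes that share libraries and depth. Subunits differed in which experiment showed the larger fall. With TMM scaling, the log2 change of the high minus that of the low experiment had a median of -0.074 over the 44 members. It was -0.021 over all genes and 0.049 over the 5378 more abundant genes. An interaction of siRNA and experiment in edgeR, which takes the single low libraries to vary like the high repeats, called 13 of 44 members with a lower and 9 with a higher value in the high experiment, against 21.8% and 17.9% of all genes. Of the alpha subunits 4 of 7 were called higher in the high experiment and 0 lower, and of the 19S subunits 0 were higher and 6 of 16 lower. With library size alone the counts over the 44 members became 34 lower and 3 higher, as the median of all genes moved to -0.30, so that Psma3, Psma4, Psma6 and Psmb1 changed sign. Psma5 differed most clearly by p (interaction 0.42 on the log2 scale, SE 0.048, edgeR adjusted p = 5.79e-13).

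With TMM scaling, the NT libraries of the experiments differed in proteasome transcripts, mainly in the core. TMM-scaled over 6 libraries, the low NT library over the high NT libraries gave a median log2 ratio of 0.68 for the core and 0.40 for the 19S particle, against 0.24 for the 12977 genes above the floor in the low libraries. None of the 13 core subunits and 7 of 16 subunits of the 19S particle lay below 0, against 42.4% of those genes. The 19S count is thus close to the background. These directions rest on the scaling. In FPKM without TMM the 19S particle was lower in the low NT library (geometric mean 59.3, against 67.6 and 66.9). The core stayed higher (130, against 111 and 111). In CPM without TMM core subunits went both ways, such as Psmb1 (112, against 140 and 139) and Psmb2 (106, against 38.2 and 38.6). The nuclear RNA Malat1 took 828 CPM of the low NT library, while the high NT libraries held 26163 and 26153 CPM. No test was run, and the part of RNA composition or cell makeup in this difference was not tested. Psmb2 stood at 125 FPKM in the low NT library, against 44.2 and 45.2 FPKM in the high NT libraries. Psmd3 stood at 42.1 FPKM in the low NT library, against 16.9 and 16.8 FPKM in the high NT libraries. In the other direction, Psmc6 stood at 48.3 FPKM in the low NT library, against 123 and 125 FPKM in the high NT libraries, and Psmd1 at 32.1 FPKM, against 76.2 and 74.0 FPKM.

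Inducible and interferon-linked parts also stood higher in the low NT library. Psme2 stood at 560 FPKM in the low NT library, against 120 and 123 FPKM in the high NT libraries, and Psme1 at 358 FPKM, against 137 and 142 FPKM. Psmb9 stood at 251 FPKM in the low NT library, against 23.6 and 24.8 FPKM in the high NT libraries. The ratio of Psmb9 to Psmb6 was thus 1.51 in the library labelled low Satb1 and 1.72 in the low NT library, and that of Psmb10 to Psmb7 was 1.61 in the library labelled low Satb1 and 2.13 in the low NT library. Cd74, 1 of the 7 genes of the dendritic cell list above, stood at 3808 FPKM in the low NT library and at 132 and 130 FPKM in the high NT libraries. TMM-scaled, the 7 genes of that list had log2 ratios of low NT over high NT from 1.00 (Zbtb46) to 5.47 (Cd74).

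**Figure D4:**
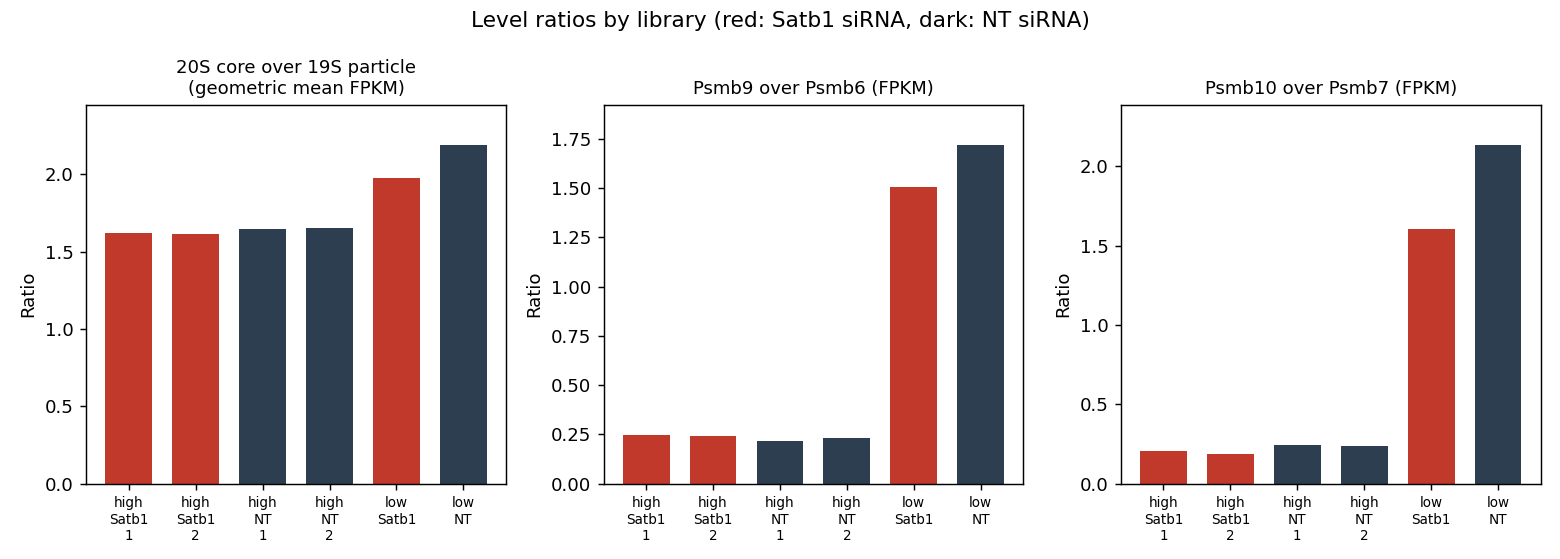
Ratios of levels in each of the 6 libraries, from the authors' FPKM: the 20S core over the 19S particle (geometric means), Psmb9 over Psmb6, and Psmb10 over Psmb7. The core ratio lies between 1.62 and 1.66 in the high libraries and at 1.98 and 2.19 in the libraries labelled low Satb1 and low NT, and the inducible ratios stay below 0.25 in the high libraries and above 1.5 in the low libraries.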

How the data were processed

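The deposited table has 27634 gene rows and 6 libraries, with FPKM and counts side by side, per the file headers. RSEM 1.2.12, DESeq2 and the build mm9 are named in the submitters' processing notes, so the deposited counts were taken for expected counts; they were already whole numbers, and rounding changed nothing. Levels are the authors' FPKM, which are scaled by length and depth. Per the labels' protocols, RNA came from Trizol extraction and went into a stranded total RNA kit. For the aligner, and for strand in counting: not given in the sources used here. RSEM divides reads shared by copies, so members with processed pseudogenes are uncertain to that extent.

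The high experiment was tested on all genes with edgeR 4.0.16 in R 4.3.3 (robust quasi-likelihood F-test, TMM, filterByExpr, two-sided, Benjamini-Hochberg over all genes, threshold 0.05), and all 44 members passed the filter. SEs are the absolute log2 fold change over the root of F. The low experiment was described by log2 ratios of TMM-scaled CPM (6 libraries, prior count 2, floor of a mean log2 CPM of 0) with exact 95% counting intervals. The detection limit, 3 counts, was 0.0421 to 0.122 CPM by library. Intervals and floors cover counting error only. A fit over 4 group means tested the difference between experiments. DESeq2 1.42.0 was an alternative. Fits were tested on simulated data. Named genes are the extremes of each role class, classes of 4 or fewer, members past 1.5-fold in the low experiment, the 3 highest and lowest FPKM of each particle, the 5 smallest interaction p-values, Satb1, the inducible subunits and the extremes of the pathway list. Other members named were chosen after their values were seen, as were Adrm1, Pomp, Nfe2l1, Nfe2l2, Malat1, Neat1 and AK158379. The members and lists were chosen with earlier results of these data known. Promoters came from RefSeq.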

Additional observations from a re-analysis of the deposited data

Results flagged for a closer look

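Over all 44 members, 13 had a lower and 9 a higher effect in the high experiment than in the low one, against 21.8% and 17.9% of all genes. Of the 31 members named by rule, 5 were chosen by the smallest p of this same test, so their count supports nothing. Among the 31, 18 had an effect of Satb1 siRNA that differed between the experiments by the edgeR interaction (log2 fold change of the high experiment minus that of the low experiment, adjusted p under 0.05). Since the low experiment has 1 library per siRNA, the test compares libraries. In 8 of them the value was above 0, so the fall was larger in the low experiment or the direction was opposite. These were Psmb11 (1.56), Psmd10 (0.63), Psma5 (0.42), Psme4 (0.33), Psmb1 (0.28), Psma3 (0.19), Psma4 (0.16) and Psma6 (0.14). In 10 the value was below 0, namely Psma8 (-1.75), Psmd3 (-0.31), Psmb6 (-0.29), Psmb3 (-0.23), Psme2 (-0.23), Psmc5 (-0.19), Psme1 (-0.17), Psmc4 (-0.15), Psmd2 (-0.15) and Psmc1 (-0.13). The values of Psma8 and Psmb11 rest on 11 to 22 counts in the low libraries. Their SEs were 0.52 and 0.48, against 0.034 to 0.074 for the 5 members with the smallest p. Among core alpha subunits all of the 4 such values were above 0, and among subunits of the 19S particle all of the 5 were below 0; with library size alone Psma3, Psma4, Psma6 and Psmb1 changed sign.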

How the results depend on the processing

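In the high experiment 36 to 38 members were called lower under every alternative but 1: with repeats summed and the experiment as a term, 0 were called lower and 0 higher. Members called higher numbered 2 with library size alone. Core minus 19S was -0.078 in the summed fit and ran from -0.037 to -0.0056 with 1 library left out. The replicate numbers do not pair the samples (correlation of same-numbered deviations -0.029), and with a replicate block 37 members were called lower. Signs changed for Psmc2 with library size alone (0.0099), for Psmb11 (-0.13), Psme4 (-0.15) and Ubqln2 (-0.016) in the summed fit, and for Psmc3ip without NT replicate 1 (-0.012) or Satb1 replicate 1 (-0.011), with 0.039 the highest of these 4 values. In the low experiment library size alone gave a members' median of 0.066, with 1 member at least 1.5-fold lower and 2 higher; with no filter 1 was higher and the median lay -0.26 from that of all genes. For the interaction, library size alone gave 34 lower and 3 higher, and signs changed for Psma3 (-0.10), Psma4 (-0.14), Psmb1 (-0.016) and Psma6 (-0.16). The quotient of the core to 19S ratio, high Satb1 over high NT, was 0.965 with median FPKM, 0.972 without the extreme subunits and 0.988 in CPM. For low Satb1 over low NT it was 0.919 with median FPKM, and for low NT over high NT 1.60, 1.39 and 1.31 in the same 3 settings, beside 1.33 with geometric means. The cause of these shifts was not tested. Independent samples are 1 per group, and at the depth of the low libraries Psma8 and Psmb11 rest on 11 to 22 counts.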
